A study of Mus musculus with 15 samples.

Results

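The genes described here are the cytochrome P450 genes (symbol Cyp) of the mouse kidney outside the Cyp4a subfamily. They were chosen by symbol only: Cyp followed by a family number, a subfamily letter or letters and a gene number, without Cyp4a genes and without Cyp4b1, Cyp7b1, Cyp24a1, Cyp27b1 and Cyp2r1. The rule itself uses no measured value, but it was set with earlier results of these data known. The set held 67 of the 17832 genes measured, in 30 subfamilies, and 56 of the 67 have a family number of 1 digit and a subfamily of 1 letter.

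The study sequenced polyadenylated RNA of whole kidney. All mice were males of the C57BLKS/J strain, 22 weeks old, with 5 libraries in each of 3 groups. The groups were db/db mice given 1 mg/kg dapagliflozin in 0.5% methylcellulose, db/db mice given 0.5% methylcellulose alone (vehicle), and m/m mice given the same vehicle. The db/db mutation removes signalling through the leptin receptor in every tissue, and the mice grow obese with type 2 diabetes; m/m mice are the lean, non-diabetic counterpart. Dapagliflozin inhibits SGLT2, the glucose transporter of the early proximal tubule, and the series title concerns its action in diabetic kidney disease. Whether each library came from an animal of its own is not stated in the labels. The p-values therefore measure the spread between these samples only, and some of that spread may be technical.

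Cytochrome P450 enzymes insert an oxygen atom into lipids, steroids and foreign chemicals, using electrons from NADPH that reach them through the reductase Por or, in mitochondria, through ferredoxin. Family 2 enzymes handle drugs, steroids and arachidonic acid, family 4 enzymes hydroxylate the ends of fatty acids and leukotrienes, and the higher-numbered families act on sterols, vitamin D and retinoic acid. In the kidney these enzymes lie mostly in the proximal tubule, where epoxides and hydroxy acids made from arachidonic acid act on salt transport and vessel tone, and in mice several renal members are known to depend on androgen, Cyp2e1 and Cyp2j5 among them.

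The libraries fell into sets of unlike depth, and db/db vehicle has libraries in both. A deep set of 14.8 to 16.4 M reads in genes per library took in db/db vehicle 1 to 3 and all 5 m/m libraries. A shallow set of 1.60 to 2.29 M reads took in all 5 dapagliflozin libraries and db/db vehicle 4 to 5. Within db/db vehicle alone, 61.1% of the 12869 genes tested differed between the sets. Genotype is therefore compared in the deep libraries, 3 db/db vehicle against 5 m/m, and the drug in the shallow ones, 5 dapagliflozin against 2 db/db vehicle libraries. Dapagliflozin 2 and 3 differed by less than sampling noise (a variance of 0.724 times what sampling gives) and were averaged and counted as 1 sample, which leaves 4 dapagliflozin samples. Dapagliflozin 1 and 2 had a ratio of 0.885, also less than sampling noise, but were kept as separate samples. The number of independent dapagliflozin samples may thus be under 4, and an alternative averaged dapagliflozin 1, 2 and 3. The other pairs within groups had ratios of 1.2 to 7.5. A count of 0 allows up to 3 reads, which amount to 0.182 to 0.202 CPM (reads scaled to the library total) in a deep library and to 1.31 to 1.87 CPM in a shallow one. All levels below are FPKM (fragments per kilobase of transcript, scaled to library size), which may be compared between genes.

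Of the 67 P450 genes, 30 reached a mean of 0.5 FPKM over the 15 libraries and were tested, in 18 subfamilies. The remaining 37 included all 5 Cyp3a genes, 8 of the 9 Cyp2c genes, Cyp1a1 and the steroid synthesis genes Cyp11a1, Cyp17a1 and Cyp21a1. Of these 37, 23 had a mean under 0.1 FPKM and 10 had fewer than 3 reads over all libraries. Among the 30 tested genes, Cyp2b9, Cyp2t4, Cyp2d10 and Cyp46a1 had a mean under 0.5 FPKM in the deep libraries and passed through the shallow ones.

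A few family 2 genes made up most of the summed FPKM of the 67 genes in m/m kidneys, a sum without Cyp4a genes and Cyp4b1. Cyp2e1, which oxidises ethanol, acetone and other small molecules, stood first with 1521 ± 99.3 FPKM (SD, n = 5), and made up 46.0% to 50.5% of the summed FPKM of the set. Cyp2j5, an arachidonic acid epoxygenase of the proximal tubule, followed with 508 ± 16.7 FPKM, then the steroid hydroxylase Cyp2a4 with 446 ± 38.8 FPKM, and their ranges overlapped, at 480 to 520 and 387 to 484 FPKM. Cyp2d9 (161 ± 35.4 FPKM), Cyp2j13 (133 ± 20.7 FPKM) and Cyp2j11 (94.4 ± 4.05 FPKM) came next, and the libraries of Cyp2d9 and Cyp2j13 overlapped. Only 13 of the 67 genes averaged above 10 FPKM in m/m kidneys, and outside family 2 these were Cyp27a1 and Cyp4f13.

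The pair Cyp2a4 and Cyp2a5 is the clearest case of near copies with unlike values, and their start regions show how alike the genes are. The windows below run from 250 bases before to 50 bases after the annotated start, from RefSeq on GRCm38.p6, at chr7:26306942-26307241 for Cyp2a4 and chr7:26835089-26835388 for Cyp2a5, both on the plus strand and written 5′ to 3′. Capitals mark the 5 aligned positions at which the windows differ.
Cyp2a4: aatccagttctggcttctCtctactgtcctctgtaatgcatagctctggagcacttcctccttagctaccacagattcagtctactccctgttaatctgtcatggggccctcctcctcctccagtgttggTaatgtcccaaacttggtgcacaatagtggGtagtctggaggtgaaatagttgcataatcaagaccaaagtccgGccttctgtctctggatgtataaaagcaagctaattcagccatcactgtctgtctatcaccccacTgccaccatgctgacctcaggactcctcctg
Cyp2a5: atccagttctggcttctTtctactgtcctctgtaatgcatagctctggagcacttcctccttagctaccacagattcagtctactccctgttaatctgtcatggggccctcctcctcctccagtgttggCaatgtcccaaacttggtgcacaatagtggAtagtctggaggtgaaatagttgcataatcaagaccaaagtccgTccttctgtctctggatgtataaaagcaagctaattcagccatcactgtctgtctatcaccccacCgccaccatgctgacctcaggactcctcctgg

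The windows were identical at 294 of 299 aligned positions (98.3%), and the longest annotated transcripts at 98.2% of 1739 positions. The letters TATAAA, searched on both strands, stood in both windows, 28 bases before the start in Cyp2a4 and 29 before it in Cyp2a5. Of the 24 tested P450 genes with a window in the RefSeq table, 8 held TATAAA, against 15.7% of all genes in the table. They were Cyp2a4, Cyp2a5, Cyp2d9, Cyp2d10, Cyp2d26, Cyp2e1, Cyp2j5 and Cyp26b1. Neither of the Cyp2a windows held AGAACA (a half-site of the androgen receptor, in 21.3% of all genes), TTCNNNGAA (the STAT5 core, in 9.55%) or CAAAGTCCA (a form of the HNF4 site, in 0.555%). Only exact matches were sought, and both windows hold a near match to CAAAGTCCA that differs in its last letter. These matches are a description of letters in the window. Of the 50-base stretches of the longest GRCm38 transcript, 36.1% in Cyp2a4 were also found in Cyp2a5, so the deposited counting could split reads between them and their separate levels are uncertain.

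The first comparison, db/db vehicle against m/m vehicle, asks what the diabetic genotype did to the P450 genes. Of the 6 genes of the set with the highest m/m levels 5 fell, while 15 genes of lower m/m level rose. That ranking uses the m/m libraries of this same comparison, which favours falls among the genes ranked first. In deep db/db vehicle libraries Cyp2d26 (mean 198 FPKM) and Cyp2a5 (112 FPKM), which rose, stood above Cyp2a4 (60.2 FPKM), while Cyp2e1 (298 FPKM) and Cyp2j5 (270 FPKM), which fell, stood above all 3. Cyp2e1, Cyp2a4 and Cyp2j13 were 5.44-, 7.44- and 6.51-fold lower in db/db vehicle, and Cyp2j5 and Cyp2j11 fell as well. The rises were led by Cyp2d26, Cyp2d22, Cyp2a5, Cyp4f16 and Cyp1b1. Of the 30 genes tested, 20 changed (66.7%) at an adjusted p under 0.05, against 37.8% of all genes tested. Rises were 15 of 30 (50%, against 29.5% of all genes), and falls were 5 of 30 (16.7%, against 8.31%). Counted by overlap alone, 15 genes had every db/db vehicle library above every m/m library and 5 had every one below, against 37.5% and 10.2% of all genes. The median log2 fold change was 0.39 over the 30 genes and 0.16 over all 12869, and with median-of-ratios scaling, which brought the median of all genes to -0.005, it was 0.23 over the 30 genes. Under that scaling 8 P450 genes rose and 6 fell, beside 1489 rises and 2349 falls among all genes in place of 3799 and 1070. Cyp2c23, Cyp2f2, Cyp2j9, Cyp2u1, Cyp4f17, Cyp27a1 and Cyp46a1 were then still higher in db/db vehicle but no longer called, and Cyp2d9 was called lower (-0.84, limma adjusted p = 0.0255).

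The summed FPKM of the 67 genes was 1157, 1671 and 1166 in db/db vehicle 1, 2 and 3, and 2954 to 3259 (median 3116) in the 5 m/m libraries. These 67 genes took 0.277% to 0.396% of the reads in genes in the deep db/db vehicle libraries, against 0.659% to 0.725% in the m/m libraries. Cyp2e1 made up 17.8% to 27.7% of the sum in db/db vehicle and 46.0% to 50.5% in m/m. The sums of the groups do not overlap, and db/db vehicle 2 was the highest of its group.

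**Figure D1:**
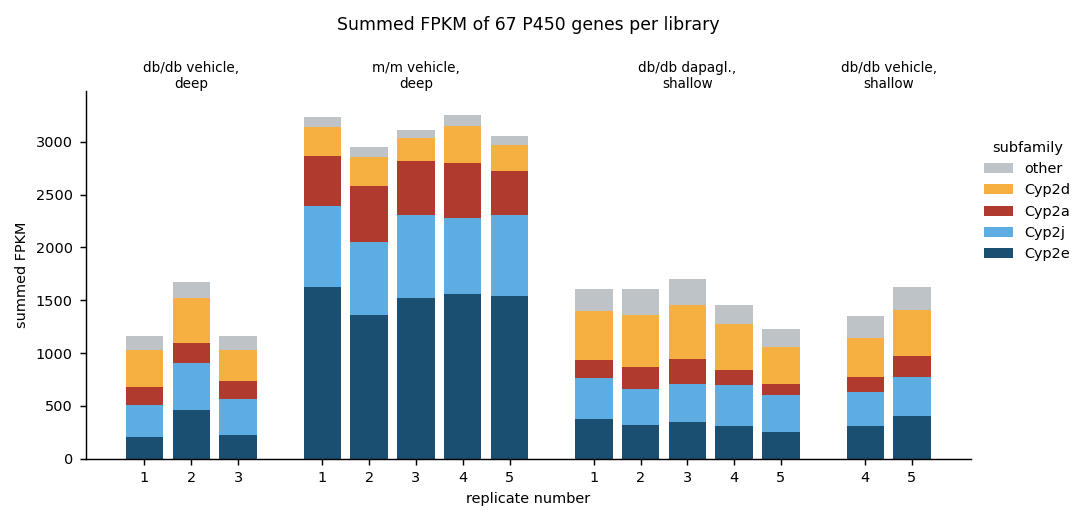
Summed FPKM of the 67 P450 genes in each library (replicate numbers on the horizontal axis), stacked by subfamily, with the deep libraries left and the shallow ones right. The 3 deep db/db vehicle sums of 1157 to 1671 FPKM lie below the 5 m/m sums of 2954 to 3259, mainly through the Cyp2e, Cyp2j and Cyp2a segments, while the dapagliflozin sums of 1226 to 1703 take in both shallow db/db vehicle sums, 1351 and 1623.

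Cyp2e1 had 206, 463 and 226 FPKM in db/db vehicle 1, 2 and 3, against 1630, 1360, 1518, 1555 and 1544 FPKM in m/m 1 to 5. Every db/db vehicle library lay under every m/m library, and db/db vehicle 2 stood above the other two. On the scale of log2(FPKM + 1), used for every fold change here, Cyp2e1 fell by 2.44 (95% interval -2.90 to -1.99, limma adjusted p = 2.41e-06), which is 5.44-fold lower. In bulk kidney RNA, fewer cells of a type and less RNA per cell cannot be told apart, here or for any gene below.

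In the Cyp2a subfamily the near copies moved in opposite directions. Cyp2a4, known in mouse liver as a testosterone hydroxylase, had 74.3, 61.7 and 44.6 FPKM in the db/db vehicle libraries, against 432, 484, 476, 453 and 387 FPKM in the m/m libraries. It fell by 2.90 (95% interval -3.36 to -2.43, limma adjusted p = 5.61e-07), or 7.44-fold, and the groups lay far apart. Cyp2a5, which hydroxylates coumarin and nicotine, had 95.4, 121 and 118 FPKM in db/db vehicle and 47.6, 50, 37.6, 59.8 and 36.5 FPKM in m/m, again without overlap. It rose by 1.27 (95% interval 0.73 to 1.81, limma adjusted p = 0.0017). Cyp2a4 made up 27.4% to 43.8% of the summed FPKM of the pair in db/db vehicle, against 88.3% to 92.7% in m/m, and the sum itself was 163 to 183 FPKM in db/db vehicle and 424 to 534 FPKM in m/m. These values rest on the deposited split of reads between the copies. The third Cyp2a gene, Cyp2a12, was under the filter.

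The Cyp2j subfamily, a cluster on mouse chromosome 4 whose known enzymes oxidise arachidonic acid, held 3 falls and 2 rises among its 5 tested genes. Cyp2j13 had 15.5, 31.3 and 14.9 FPKM in db/db vehicle, against 139, 109, 161, 117 and 139 FPKM in m/m. It fell by 2.70 (95% interval -3.15 to -2.25, limma adjusted p = 8.30e-07), and its groups lay far apart. Cyp2j5 had 225, 333 and 253 FPKM in db/db vehicle, against 520, 480, 519, 508 and 515 FPKM in m/m, and fell by 0.93 (95% interval -1.15 to -0.71, limma adjusted p = 1.89e-05). The m/m libraries of Cyp2j5 were close together, and the db/db vehicle ones were all lower. Cyp2j11 had 51.9, 57.1 and 56.2 FPKM in db/db vehicle, against 92.4, 90.6, 100, 91.6 and 97.1 FPKM in m/m, and fell by 0.77 (95% interval -0.90 to -0.63, limma adjusted p = 1.36e-06). Both groups of Cyp2j11 were tight, which gave the narrowest interval of the tested P450 genes. In the other direction, Cyp2j9 averaged 10.2 ± 4.60 FPKM in db/db vehicle and 5.25 ± 0.466 FPKM in m/m (SD, n = 3 and 5; rise of 0.77, limma adjusted p = 0.00944), and Cyp2j6 averaged 7.34 ± 0.896 and 4.88 ± 0.646 FPKM in the same groups (rise of 0.51, limma adjusted p = 0.00551). These 2 rises are small in FPKM beside the falls, and the Cyp2j sum was 305 to 446 FPKM in db/db vehicle and 689 to 789 FPKM in m/m. Of the 50-base stretches of these 5 genes, 0% to 1.34% were shared with another gene.

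Within Cyp2d, a cluster on mouse chromosome 15 whose genes oxidise drugs and steroids, 2 of 5 tested genes rose and 3 were not called. Cyp2d26 had 162, 241 and 191 FPKM in db/db vehicle, against 58.5, 81.0, 52.7, 71.6 and 67.7 FPKM in m/m. Every db/db vehicle library lay above every m/m library, and the log2 fold change was 1.56 (95% interval 1.26 to 1.87, limma adjusted p = 3.83e-06). Cyp2d22 had 28.5, 31.2 and 30.1 FPKM in db/db vehicle, against 10.5, 12, 8.39, 11.5 and 10.3 FPKM in m/m, and rose by 1.43 (95% interval 1.22 to 1.64, limma adjusted p = 3.51e-07). Cyp2d9, known in mouse liver as a male-specific testosterone hydroxylase, had 112, 141 and 68.8 FPKM in db/db vehicle and 145, 161, 134, 222 and 143 FPKM in m/m. Its groups overlapped, and it was not called (log2 fold change -0.62, 95% interval -1.13 to -0.11, limma adjusted p = 0.0554), and leaving out 1 library gave -0.85 without db/db vehicle 2 (limma adjusted p = 0.0221) and -0.33 without db/db vehicle 3 (limma adjusted p = 0.306). Cyp2d12 spread over 8.52 to 43.6 FPKM in db/db vehicle and 19.1 to 55.8 FPKM in m/m (log2 fold change -0.68, limma adjusted p = 0.233), and its value rested on single libraries, with -1.25 without db/db vehicle 1 (limma adjusted p = 0.031) and -0.14 without db/db vehicle 3 (limma adjusted p = 0.833). Cyp2d10 was near the floor in the deep libraries, with 3 to 19 reads in db/db vehicle and 1 to 5 in m/m. Cyp2d9 and Cyp2d10 share 29.0% and 40.5% of their 50-base stretches with other genes and Cyp2d26 10.5%, so the split of reads within this cluster is uncertain.

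**Figure D2:**
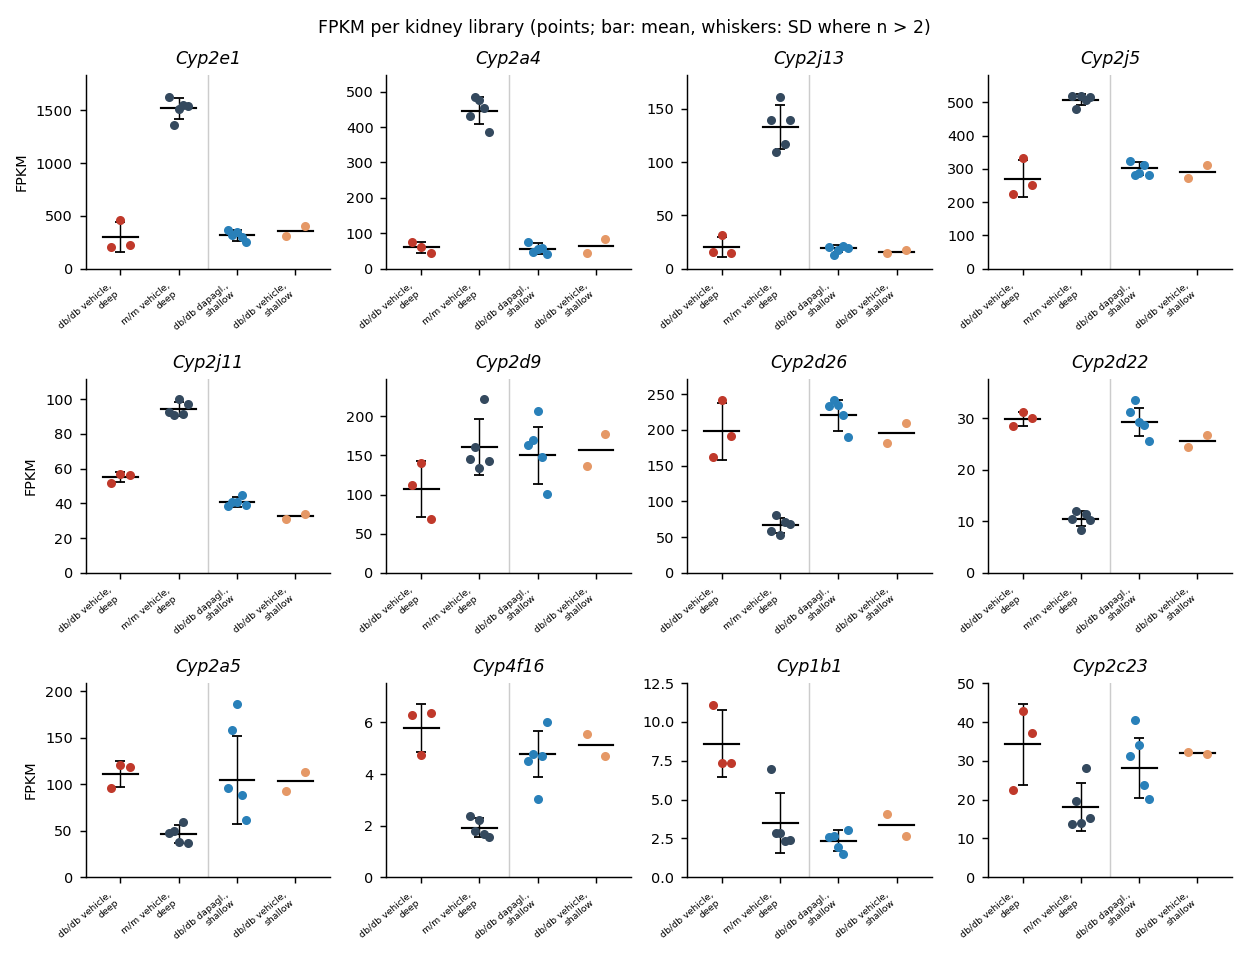
FPKM of 12 P450 genes in every library (points), with group means (bars) and SD (whiskers, where n is over 2), deep libraries left of the grey line and shallow ones right of it; dapagliflozin 2 and 3 count as 1 sample in the mean. In the deep set, Cyp2e1, Cyp2a4, Cyp2j13, Cyp2j5 and Cyp2j11 are lower in db/db vehicle than in m/m without overlap, Cyp2d9 overlaps, and Cyp2d26, Cyp2d22, Cyp2a5 and Cyp4f16 are higher without overlap.

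The tested family 4 genes of this set, which leaves out Cyp4a genes and Cyp4b1, rose or were not called. Cyp4f16, of the subfamily that hydroxylates leukotrienes and long fatty acids, had 6.28, 4.73 and 6.37 FPKM in db/db vehicle, against 2.39, 1.78, 2.23, 1.68 and 1.54 FPKM in m/m. It rose by 1.22 (95% interval 0.93 to 1.51, limma adjusted p = 1.89e-05), without overlap, and 24.8% of its 50-base stretches are shared with Cyp4f37, which was under the filter. Cyp4f17 rose less, with 6.32 ± 0.552 FPKM in db/db vehicle and 4.33 ± 0.336 FPKM in m/m (rise of 0.46, limma adjusted p = 0.00223). Cyp4f13, the most abundant gene of the subfamily at 17.6 ± 1.14 FPKM in db/db vehicle and 16.2 ± 1.30 FPKM in m/m, was not called (log2 fold change 0.11, 95% interval -0.06 to 0.27), nor was Cyp4f14, a leukotriene hydroxylase with under 1 FPKM in every deep library. Cyp4v3, the mouse relative of a human gene of ocular fatty acid metabolism, had 5.04, 3.66 and 4.05 FPKM in db/db vehicle, against 2.39, 2.39, 1.74, 2.09 and 2.01 FPKM in m/m. The groups did not overlap, and it rose by 0.74 (95% interval 0.44 to 1.05, limma adjusted p = 0.00139).

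Cyp1b1 and Cyp2c23 were the least even of the larger rises. Cyp1b1, which oxidises oestrogens and aromatic hydrocarbons and is induced through the aryl hydrocarbon receptor, had 11.1, 7.32 and 7.38 FPKM in db/db vehicle, against 6.94, 2.86, 2.82, 2.36 and 2.42 FPKM in m/m. The groups did not overlap, although m/m 1 lay close to the lowest db/db vehicle library, and the rise was 1.16 (95% interval 0.60 to 1.72, limma adjusted p = 0.00395). Cyp2c23, the main arachidonic acid epoxygenase of rat kidney and the only Cyp2c gene tested, had 22.6, 43.0 and 37.2 FPKM in db/db vehicle, against 13.6, 19.6, 13.9, 28.2 and 15.2 FPKM in m/m. Its groups overlapped at db/db vehicle 1 and m/m 4. Cyp2c23 rose by 0.89 (95% interval 0.34 to 1.44, limma adjusted p = 0.0146), and it was no longer called without db/db vehicle 2 (0.71, limma adjusted p = 0.0740) or without db/db vehicle 3 (0.81, limma adjusted p = 0.0643).

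The other rises were of genes at low or moderate level. Cyp2s1, an enzyme of epithelia induced by dioxin, had 10, 6.73 and 11.6 FPKM in db/db vehicle, against 5.63, 5.78, 5.23, 6.44 and 4.64 FPKM in m/m (rise of 0.65, limma adjusted p = 0.00461). Cyp2f2, known for naphthalene metabolism in airway cells, had 3.15, 5.53 and 2.67 FPKM in db/db vehicle, against 1.66, 2.59, 1.36, 2.11 and 2 FPKM in m/m (rise of 0.67, limma adjusted p = 0.021). Neither pair of groups overlapped, but Cyp2f2 was no longer called without db/db vehicle 2 (0.42, limma adjusted p = 0.121). Cyp2u1, a hydroxylase of long fatty acids, had 2.21, 1.53 and 2.20 FPKM in db/db vehicle, against 1.11, 1.09, 1.26, 1.01 and 1.15 FPKM in m/m (rise of 0.48, limma adjusted p = 0.0464). Its call stood close to the threshold and was lost without any 1 deep library other than db/db vehicle 2 (limma adjusted p = 0.0636 to 0.15). For Cyp2f2, Cyp2s1 and Cyp2u1, as for Cyp2a4, a gene on the opposite strand overlaps an exon in GRCm38, and the strand setting of the counting is not stated in the sources used here.

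Of the sterol and retinoid enzymes, Cyp27a1 and Cyp46a1 rose. Cyp27a1, the mitochondrial sterol hydroxylase of bile acid synthesis, had 28.7, 34.8 and 26.4 FPKM in db/db vehicle, against 23.9, 24.5, 19.0, 24.7 and 20.6 FPKM in m/m. The groups lay next to each other without overlap, and the rise was 0.39 (95% interval 0.16 to 0.63, limma adjusted p = 0.0127), which was lost without db/db vehicle 2 (0.29, limma adjusted p = 0.0731). Cyp46a1, the cholesterol hydroxylase of brain, had 0.608, 0.736 and 0.799 FPKM in db/db vehicle, against 0.326, 0.279, 0.287, 0.401 and 0.240 FPKM in m/m (rise of 0.39, limma adjusted p = 0.0496), a call that was lost without any 1 of the 8 deep libraries (limma adjusted p = 0.0588 to 0.147). Cyp39a1, an oxysterol hydroxylase (log2 fold change 0.27, limma adjusted p = 0.144), and Cyp26b1, which degrades retinoic acid (0.55, 95% interval -0.14 to 1.24, limma adjusted p = 0.193), were not called. At these low levels the pseudocount of 1 holds the log2 values down: with 0.1 in its place the log2 fold change was 1.01 for Cyp46a1 (limma adjusted p = 0.0033) and 1.01 for Cyp26b1 (limma adjusted p = 0.153). Cyp20a1, an orphan P450 whose substrate is unknown, averaged 6.81 ± 0.296 FPKM in db/db vehicle and 6.47 ± 0.433 FPKM in m/m (log2 fold change 0.07, 95% interval -0.15 to 0.28).

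**Figure D3:**
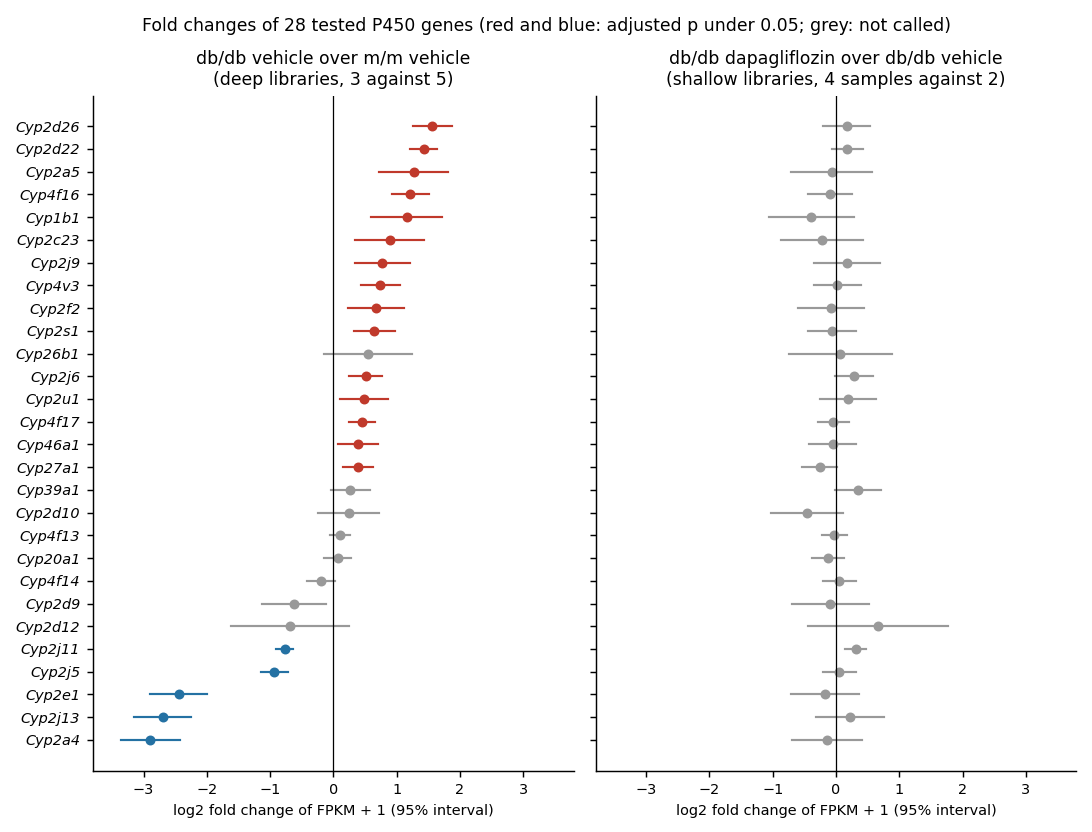
Log2 fold changes of FPKM + 1 with 95% intervals (horizontal axis) for 28 tested P450 genes, db/db vehicle over m/m vehicle left and db/db dapagliflozin over db/db vehicle right; red and blue mark an adjusted p under 0.05 and grey no call. Genotype changes run from -2.90 for Cyp2a4 to 1.56 for Cyp2d26, while no gene was called for dapagliflozin and its changes run from -0.46 to 0.66. Cyp2b9 and Cyp2t4, near 0 in the deep libraries, are left out.

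Most but not all of the listed markers of the late proximal tubule were lower in db/db vehicle. Of 6 markers of the S3 segment of this tubule, 5 fell and 1 rose. Over all genes tested 8.31% fell and 29.5% rose, and these shares stand beside every marker count below. Slco1a1 (log2 fold change -6.23), Slc22a7 (-5.07), Acsm3 (-4.71), Slc7a13 (-3.60) and Atp11a (-2.58) fell, while Slc5a1 rose by 0.96 (limma adjusted p = 2.82e-05). The summed level of the 6 was 113 to 161 FPKM in db/db vehicle against 1019 to 1625 FPKM in m/m, with none at 0 in either group. The 5 markers of the S1 and S2 segments had 860 to 1226 FPKM in db/db vehicle and 968 to 1112 FPKM in m/m, with 1 rise and 1 fall. Liver markers summed to 35.1 to 69.1 FPKM in db/db vehicle and 24.9 to 119 FPKM in m/m (1 rise and 1 fall among 6 tested, with Ahsg and Tat at 0 in m/m). Adrenal markers summed to 3.6 to 4.65 FPKM in db/db vehicle and 2.03 to 2.44 FPKM in m/m (2 rises among 3 tested, with Dbh at 0 in both groups). Fat markers summed to 32.4 to 66.8 FPKM in db/db vehicle and 21.8 to 33.0 FPKM in m/m (1 rise among 2 tested, with Adipoq at 0 in db/db vehicle, and Plin1 and Lep at 0 in m/m). All 11 kidney markers had reads in every group, with 4 rises and 4 falls (Kap, Lrp2, Kl and Slc34a1). Their summed level was 5242 to 8672 FPKM in db/db vehicle and 44339 to 49965 FPKM in m/m. Most of the m/m sum was Kap, an androgen-regulated gene of the proximal tubule, which averaged 2448 FPKM in db/db vehicle and 41608 FPKM in m/m (log2 fold change -4.25, limma adjusted p = 1.87e-07), while Lrp2 fell by 0.74 and Kl by 0.68. The part of cell makeup in the P450 changes was not tested.

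Among genes that serve or regulate P450 enzymes, the called share was not above the 37.8% called of all genes. Of 15 electron donors and partners, 2 rose and 3 fell: cytochrome b5 (Cyb5a), which passes electrons to many P450 enzymes, averaged 469 ± 17.5 FPKM in db/db vehicle and 915 ± 64.2 FPKM in m/m (log2 fold change -0.96, limma adjusted p = 3.86e-07), and Pgrmc1, a heme-binding partner, 189 ± 23.3 and 114 ± 1.79 FPKM in the same groups (0.72, limma adjusted p = 2.32e-05). Ferredoxin (Fdx1) fell by 0.33, Cyb5r3 fell by 0.23 and ferredoxin reductase (Fdxr) rose by 0.46, while the P450 reductase Por was not called. Of 31 regulators tested among 35 listed, 6 rose and 4 fell. The rises included Nr1i2 (PXR, the receptor for foreign chemicals, log2 fold change 0.84, limma adjusted p = 0.00106), Nr0b2 (0.74, limma adjusted p = 0.000441) and Arnt, the partner of the aryl hydrocarbon receptor (0.45, limma adjusted p = 0.000473), and the falls included the oestrogen receptor Esr1 (-0.85, limma adjusted p = 0.000467). The median log2 fold change was 0.02 for the partners and 0.09 for the regulators, against 0.16 over all genes.

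Fatty acid epoxide and oxylipin enzymes use the same lipids as many P450 enzymes. Of 14 tested among 20 listed, 8 rose and 4 fell, against 29.5% and 8.31% of all genes, with a median log2 fold change of 0.48 against 0.16. Microsomal epoxide hydrolase (Ephx1) averaged 68.5 ± 10.4 FPKM in db/db vehicle and 14.1 ± 1.31 FPKM in m/m (log2 fold change 2.19, limma adjusted p = 1.58e-08). Soluble epoxide hydrolase (Ephx2), which opens the epoxides made from arachidonic acid, averaged 120 ± 15.8 FPKM in db/db vehicle and 201 ± 18.1 FPKM in m/m (-0.74, limma adjusted p = 0.000112). The lipoxygenase Alox15 fell to 0.340 ± 0.0718 FPKM in db/db vehicle, against 7.05 ± 1.62 FPKM in m/m (-2.56, limma adjusted p = 4.77e-08), while the leukotriene synthase Ltc4s rose by 1.95 and the cyclooxygenase Ptgs1 by 0.68. Of 8 tested among 14 retinoid enzymes, 2 rose and 1 fell, against 29.5% and 8.31% of all genes, with a median log2 fold change of 0.24 against 0.16. Aldh1a1, which makes retinoic acid, averaged 69.2 ± 23.7 FPKM in db/db vehicle and 26.0 ± 2.80 FPKM in m/m (1.33, limma adjusted p = 0.000133), Rdh11 rose by 0.50 and Rdh10 fell by 0.62.

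Comparing dapagliflozin with vehicle in db/db mice asks whether SGLT2 inhibition changed these genes. None of the 30 tested P450 genes was called by limma, against 0.28% of all genes tested (0.132% higher and 0.148% lower). Among the 6 most abundant genes of the set in m/m kidneys, all but Cyp2j11 had treated libraries that overlapped the untreated ones. At an unadjusted p under 0.05 there was 1 P450 gene, Cyp2j11, against 12.7% of all genes. The fold changes were positive for 15 genes and negative for 15, from -0.46 to 0.66. The precision of this comparison differed by gene: the 95% intervals reached 0.16 to 1.11 (median 0.42) to each side of the log2 fold change. Changes within those bounds were not detectable here. Larger ones could also go uncalled, since the intervals are not adjusted for the number of genes tested and the calls are. Cyp2j11 was such a case (log2 fold change 0.31, 95% interval 0.15 to 0.47, limma adjusted p = 0.101).

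The summed FPKM of the 67 genes was 1608, 1609, 1703, 1457 and 1226 in dapagliflozin 1 to 5, and 1351 and 1623 in db/db vehicle 4 and 5, so the sums overlap. Cyp2e1 had 371, 317, 347, 305 and 254 FPKM with dapagliflozin, against 306 and 404 FPKM in db/db vehicle (log2 fold change -0.17, 95% interval -0.71 to 0.37, limma adjusted p = 0.844). Cyp2a4 had 76.6, 48.4, 55.3, 57.5 and 40.8 FPKM with dapagliflozin, against 44.8 and 82.7 FPKM in db/db vehicle (-0.14, 95% interval -0.69 to 0.41). In both genes the groups overlap. Cyp2j5 had 325, 282, 288, 313 and 283 FPKM with dapagliflozin, against 272 and 312 FPKM in db/db vehicle (0.05, 95% interval -0.21 to 0.31). Cyp2j13 had 20.2, 12.5, 17.2, 21.7 and 19.4 FPKM with dapagliflozin, against 14.5 and 17.8 FPKM in db/db vehicle (0.22, 95% interval -0.31 to 0.76). Cyp2d9 ranged from 101 to 207 FPKM with dapagliflozin and had 136 and 178 FPKM in db/db vehicle (-0.09, 95% interval -0.69 to 0.52). All of these groups overlap.

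Only 3 tested P450 genes had treated and untreated libraries that did not overlap, 2 higher and 1 lower, against 5.73% and 7.09% of all genes. Cyp2j11 had 38.4, 40.6, 41, 44.6 and 38.8 FPKM with dapagliflozin, against 31.3 and 34 FPKM in db/db vehicle, all treated libraries being higher. Its log2 fold change was 0.31 (95% interval 0.15 to 0.47), and it missed the threshold after adjustment (limma adjusted p = 0.101). Cyp2d12 had 34.1, 40.6, 39.8, 41.7 and 31.8 FPKM with dapagliflozin, against 24.3 and 21.5 FPKM in db/db vehicle, again all higher. Its interval was the widest of the set (0.66, 95% interval -0.44 to 1.77, limma adjusted p = 0.651). Cyp27a1 had 18.3 to 23.7 FPKM with dapagliflozin, against 23.9 and 25.0 FPKM in db/db vehicle (-0.25, 95% interval -0.53 to 0.02, limma adjusted p = 0.443). Among the genotype rises, Cyp2a5 ranged from 62.0 to 186 FPKM with dapagliflozin and had 92.9 and 113 FPKM in db/db vehicle, Cyp2d26 from 190 to 241 FPKM against 182 and 210 FPKM, and Cyp2d22 from 25.6 to 33.6 FPKM against 24.5 and 26.7 FPKM, and their groups all overlap. The partner, regulator, oxylipin and retinoid lists held no call for dapagliflozin.

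Between the library sets, Cyp2f2 differed more than any P450 gene did in either comparison. Within db/db vehicle, 13 of the 30 tested genes differed between libraries 4 and 5 (shallow) and libraries 1, 2 and 3 (deep), against 61.1% of all genes. Of these, 6 were higher in the shallow libraries, against 18.8% of all genes, and 7 lower, against 42.3%. Cyp2b9, Cyp2t4, Cyp2d10 and Cyp46a1 are among the 6 and passed the filter only through the shallow libraries, so their direction was fixed by the filter and nothing is read from the count. Cyp2f2 had 87.3 and 95.1 FPKM in db/db vehicle 4 and 5, against 3.15, 5.53 and 2.67 FPKM in db/db vehicle 1, 2 and 3 (log2 fold change 4.31, 95% interval 3.76 to 4.86, limma adjusted p = 4.75e-09), and its dapagliflozin libraries had 66.6 to 120 FPKM. Cyp2b9 had 4 and 10 reads in the shallow db/db vehicle libraries and 0 in all 8 deep libraries, and Cyp2t4 had 4 and 9 reads against 0 in the 3 deep db/db vehicle libraries. No fold change is given for them. In GRCm38 an exon of Cyp2t4 overlaps Egln2 and an exon of Cyp2f2 overlaps Gm15883, each on the opposite strand, and the part of this overlap in the values was not tested.

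**Figure D4:**
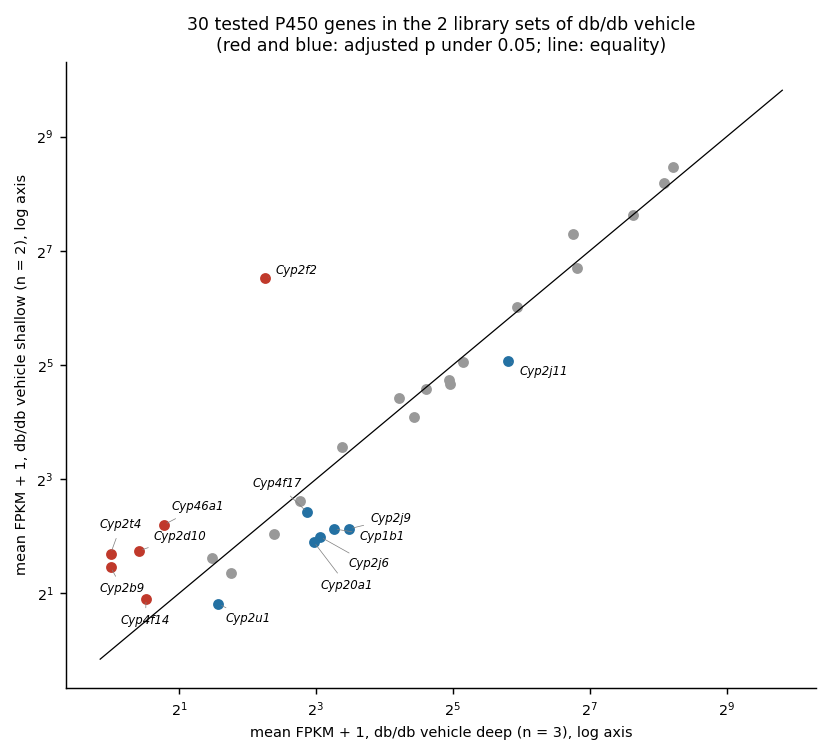
Mean FPKM + 1 of the 30 tested P450 genes in db/db vehicle, shallow libraries (vertical, n = 2) against deep libraries (horizontal, n = 3), both on log axes; red and blue mark genes called higher and lower in the shallow set, and the line marks equality. Cyp2f2 stands far above the line (log2 fold change 4.31), Cyp2j9, Cyp1b1, Cyp20a1, Cyp2j6 and Cyp2j11 lie below it, and the most abundant genes other than Cyp2j11 were not called.

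The lower genes were Cyp2j9 (log2 fold change -1.28), Cyp1b1 (-1.13), Cyp20a1 (-1.07), Cyp2j6 (-1.07), Cyp2u1 (-0.82), Cyp2j11 (-0.74) and Cyp4f17 (-0.45). Of the 5 genes that fell by genotype, Cyp2j11 alone differed between the sets, while Cyp2e1 (0.34, 95% interval -0.23 to 0.91), Cyp2a4 (0.05, 95% interval -0.53 to 0.63), Cyp2j13 (-0.26, 95% interval -0.82 to 0.30) and Cyp2j5 (0.13, 95% interval -0.15 to 0.40) were not called. Cyp2d26 had 182 and 210 FPKM in the shallow and 162, 241 and 191 FPKM in the deep db/db vehicle libraries. No m/m library is shallow and no dapagliflozin library is deep, so treated and m/m kidneys are not compared here.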

How the data were processed

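Total RNA of whole kidney was made into TruSeq Stranded mRNA libraries, per the labels' protocols. The authors deposited FPKM per gene in 1 table of 17832 genes and 15 libraries. The submitters' processing notes name HISAT2, Cufflinks, HTSeq and Trimmomatic and the build GRCm39. Their versions and settings, and whether counting used strand, were not given in the sources used here.

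Each gene's FPKM were whole multiples of the value of 1 read (100% of positive values, relative tolerance 1e-06), which gave the reads per gene and library. These served for depth and for the noise between libraries, and no count model was run. Floors of 3 reads cover counting error only. A boundary of 5 M reads separated the deep from the shallow libraries.

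Fold changes came from limma 3.58.1 (R 4.3.3) on log2(FPKM + 1) with an intensity trend, in 1 fit of 14 samples with a mean for each group and library set and 10 residual degrees of freedom. Dapagliflozin 2 and 3 were averaged. Genes averaging 0.5 FPKM or more over the libraries (12869) were tested, 2-sided, with Benjamini-Hochberg adjustment over all of them, and calls were made at 0.05. The pseudocount understates changes of genes of low level. The fit shares its spread over all samples, so the shallow libraries are taken to vary like the deep ones. The steps were tested on simulated data.

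The members, the lists, the tests and the alternatives were chosen with earlier results of these data known. Values of every library are given for the 6 members of highest mean in m/m, the 6 largest called rises and falls of each comparison, and the called member with the largest change of each subfamily. Other members are given by ranges and counts. From each list of partners, regulators, oxylipin and retinoid enzymes, up to 6 called genes of smallest adjusted p could be named. Alternatives were another pseudocount, other filters, median-of-ratios and quantile scaling, separate or further averaged dapagliflozin samples, a replicate block, only the libraries compared, pooled library sets, and each library left out.

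Sequence sharing was counted as 50-base stretches of the longest transcript found in transcripts of other genes, with overlapping exons, in a GRCm38 annotation matched by symbol for all 30 tested members. It is another assembly than that of the files, so no coordinates of the files are given. Start regions are from a RefSeq table of GRCm38.p6, in which 24 of the 30 were matched.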

Additional observations from a re-analysis of the deposited data

Results flagged for a closer look

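Across the 30 tested P450 genes, 60 groups of 4 or 5 samples were examined for a library far from the others of its group, and chance gives such a gap in about 1 in 20 groups. There were 2. Cyp1b1 had 6.94 FPKM in m/m 1, against 2.36 to 2.86 FPKM in the other 4 m/m libraries. Cyp2t4 had 0.0431 FPKM in m/m 4, which is 1 read, and 0 in the other 4.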

How the results depend on the processing

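The 5 genes that fell by genotype (Cyp2a4, Cyp2j13, Cyp2e1, Cyp2j5 and Cyp2j11) and 6 of the 15 that rose (Cyp2d26, Cyp2d22, Cyp2a5, Cyp4f16, Cyp4v3 and Cyp2s1) were called in the same direction under every alternative run. The number of rises among P450 genes was 8 with median-of-ratios scaling, 8 with quantile normalization and 8 with pooled library sets, and 11 to 13 with 1 library left out. Falls stayed at 5 or 6. Beside 3799 rises and 1070 falls of all genes, median-of-ratios scaling gave 1489 and 2349, quantile normalization 1586 and 1747, and pooling 2097 rises. Cyp2u1 and Cyp46a1 lost their call under most alternatives. Quantile normalization took away 7 calls, among them those of Cyp2j6, Cyp27a1 and Cyp2f2. Pooling also took away 7, among them those of Cyp1b1, Cyp27a1, Cyp2f2 and Cyp2j6 (0.0769, limma adjusted p = 0.819). Cyp2d12 was called lower without db/db vehicle 1 (-1.25, limma adjusted p = 0.031) but had -0.14 without db/db vehicle 3 (limma adjusted p = 0.833). Cyp2d9 was called lower without db/db vehicle 2 (-0.85, limma adjusted p = 0.0221) and with median-of-ratios scaling (-0.84, limma adjusted p = 0.0255) but had -0.33 without db/db vehicle 3 (limma adjusted p = 0.306). Cyp39a1 was called higher with only the libraries compared (0.27, limma adjusted p = 0.0146). Uncalled genes changed sign: Cyp20a1 to -0.13, -0.14, -0.02 and -0.36 with median-of-ratios scaling, quantile normalization, the replicate block and pooling, Cyp4f13 to -0.10 and -0.0093 with the scalings, and Cyp39a1 to -0.0058 with quantile normalization.

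For dapagliflozin, no P450 gene was called under any alternative. Among all genes, 17 were called higher and 19 lower. Without a filter there were 64 and 158, with quantile normalization 26 higher, with only the libraries compared 0 and 1, pooled 175 and 675, and with dapagliflozin 1, 2 and 3 averaged, an alternative chosen after seeing the data, 28 and 41. Leaving out 1 library gave 1 to 63 higher and 0 to 69 lower, and leaving out dapagliflozin 2 and 3 gave 34 lower. With 1 library left out, the log2 fold change ran from -0.57 to 0.30 for Cyp2a4, from -0.28 to 0.11 for Cyp2d9, from -0.37 to 0.0293 for Cyp2e1 and from -0.0505 to 0.14 for Cyp2j5, where a lone db/db vehicle library is assumed to vary like the others. Pooling gave 0.35 for Cyp2d10, 0.27 for Cyp2d9, 0.0318 for Cyp2e1 and -0.14 for Cyp2j11. Between the library sets, median-of-ratios scaling gave 10 higher P450 genes in place of 6, and 3210 lower genes in place of 5441. The causes were not tested.

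The replicate numbers were not taken as pairs of libraries. Of 15 same-numbered pairs, correlations of deviations from the group mean ran from -0.724 to 0.381, and 2 were over 0.1. The lowest was that of dapagliflozin 5 with db/db vehicle 5. Shallow db/db vehicle has only 2 libraries, whose deviations mirror each other, so dapagliflozin 5 had 0.724 with db/db vehicle 4. The check therefore cannot settle whether the numbers mark pairs. The fit with the replicate block called 13 P450 genes higher and 5 lower by genotype and none for dapagliflozin, with 0 genes higher and 1 lower among all genes. Depth limits the genes near 3 reads per library, among them Cyp2b9, Cyp2t4 and Cyp2d10.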

Other observations

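Some P450 genes under the filter had uneven values. Cyp2b10, the main phenobarbital-inducible gene of mouse liver, had 0.369, 0.0715 and 0 FPKM in db/db vehicle 1, 2 and 3, against 0.560, 0.102, 1.25, 0.451 and 0.648 FPKM in m/m 1 to 5, and the groups overlapped. Cyp4f18, a leukotriene hydroxylase of white blood cells, had 1.23 FPKM (56 reads) in db/db vehicle 1, against 0.0705 and 0.118 FPKM in db/db vehicle 2 and 3 and 0.0223 to 0.192 FPKM in m/m. Cyp26a1, which degrades retinoic acid, had 0.272, 1.23 and 0.437 FPKM in the deep db/db vehicle libraries and 0.167 to 0.705 FPKM in m/m.

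Cyp2g1 had reads only in dapagliflozin 2 and 3 (4 and 3 reads), the libraries that differed by less than sampling noise, and 0 in the other 13 libraries. These genes were chosen after their values were seen, and none was tested.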
